A study of Homo sapiens with 12 samples.

Results

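The 44 genes described here encode proteins that build ribosomes in the nucleolus, and all 44 were found by gene symbol among the 63241 genes of the deposited count table. They were followed in 2 human germ cell tumour lines, each labelled WT in genotype, after 24 hours with the inhibitor I-BRD9 or its solvent. The 4 groups of 3 libraries each were TCam-2 with 15 µM I-BRD9, TCam-2 with DMSO, 2102 EP with 15 µM I-BRD9 and 2102 EP with DMSO. TCam-2 is a seminoma line and was kept in RPMI, whereas 2102 EP is an embryonal carcinoma line and was kept in DMEM, so line and medium cannot be told apart. I-BRD9 is a small-molecule inhibitor that occupies the bromodomain of BRD9, which belongs to the non-canonical BAF complex of chromatin remodellers. Libraries are named below by their replicate number in the labels. Each line comes from 1 tumour. The libraries were made with a kit that reads the 3′ ends of transcripts, so changes are read between samples within 1 gene, and counts set beside each other across genes describe depth.

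Ribosome production begins when RNA polymerase I transcribes the ribosomal RNA precursor in the nucleolus. Small nucleolar ribonucleoproteins of the box C/D and box H/ACA classes methylate and pseudouridylate this precursor, the small-subunit processome and later factors cut and fold the part that becomes the small subunit, and a separate set of assembly factors matures the large subunit. The process is costly in dividing cells, and many of its genes are known targets of MYC family transcription factors, which bind the E-box CACGTG with their partner MAX.

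In TCam-2, 34 of the 44 genes (77.3%) fell with I-BRD9 and none rose, with a median log2 fold change of −0.46. In 2102 EP, 16 (36.4%) fell and none rose, with a median of −0.18. Of all tested genes 16.5% fell in TCam-2 and 18.6% in 2102 EP. All 16 were among the 34. The largest falls were those of NOP16 in TCam-2, which fell by 46.0%, and of GAR1 in 2102 EP, which fell by 47.3%. Tested against each other, the responses of the lines differed for 2 genes, RRP9 and RRP1B, both lower in TCam-2. These are 4.55% of the 44, beside 7.19% of all genes called lower, so their number is no result about the group.

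The windows around the annotated starts of 8 of these genes are printed here because 15 of the 35 genes with a known window carried the E-box, and 6 with it stand beside 2 without it. Each runs from 100 bases before the start to 30 bases from it, written 5′ to 3′ on the gene's strand, and so covers upstream flank and the first transcribed bases. Capitals mark CACGTG, the E-box, and CCGGAAG, a core of ETS family sites, in either orientation. In NOP16 the ETS core runs in both orientations at once, so its 10 capitals overlap.
RRP9: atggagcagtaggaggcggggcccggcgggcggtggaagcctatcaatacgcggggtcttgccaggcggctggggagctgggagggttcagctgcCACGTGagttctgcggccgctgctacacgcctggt
UTP4: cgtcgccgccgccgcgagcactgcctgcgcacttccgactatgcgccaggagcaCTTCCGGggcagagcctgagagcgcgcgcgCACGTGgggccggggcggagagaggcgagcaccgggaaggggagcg
MRTO4: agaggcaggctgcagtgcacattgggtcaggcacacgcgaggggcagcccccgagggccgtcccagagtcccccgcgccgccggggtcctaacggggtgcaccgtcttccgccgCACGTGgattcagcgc
WDR43: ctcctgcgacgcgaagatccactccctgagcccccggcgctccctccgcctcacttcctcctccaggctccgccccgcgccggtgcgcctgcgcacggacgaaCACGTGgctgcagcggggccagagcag
FBL: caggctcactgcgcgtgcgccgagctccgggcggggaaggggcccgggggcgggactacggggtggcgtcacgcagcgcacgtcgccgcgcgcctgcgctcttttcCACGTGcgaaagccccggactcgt
NOP14: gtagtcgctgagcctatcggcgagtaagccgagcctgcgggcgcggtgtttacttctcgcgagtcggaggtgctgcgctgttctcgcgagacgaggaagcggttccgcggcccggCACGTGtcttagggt
NOP16: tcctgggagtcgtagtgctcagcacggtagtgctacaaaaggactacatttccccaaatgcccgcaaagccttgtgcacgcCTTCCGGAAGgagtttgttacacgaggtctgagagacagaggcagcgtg
WDR12: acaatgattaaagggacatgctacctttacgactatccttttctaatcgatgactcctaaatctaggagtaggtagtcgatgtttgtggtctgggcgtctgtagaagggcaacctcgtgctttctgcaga

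These sequences are RefSeq's for GRCh38.p14. They lie for RRP9 at chr3:51941875-51942004 (minus strand), UTP4 at chr16:69132549-69132678 (plus strand), MRTO4 at chr1:19251705-19251834 (plus strand) and WDR43 at chr2:28894567-28894696 (plus strand). Those of the others are FBL at chr19:39846350-39846479 (minus strand), NOP14 at chr4:2963377-2963506 (minus strand), NOP16 at chr5:176388569-176388698 (minus strand) and WDR12 at chr2:202911644-202911773 (minus strand). The starts used are RefSeq's, and those of 4 genes lie well inside the outermost 5′ end that GENCODE release 29 gives the gene, by 266 bases for MRTO4, 377 for NOP16, 1358 for UTP4 and 103125 for WDR12. Those of the other 4 lie within 37 bases of it. Windows at another start would hold other letters, so for these 4 genes a motif's place or its absence holds for the RefSeq start. Of the 44 genes, 35 had an entry of 250 bases before to 50 after a start, and those without one were RRP1B, NOP58, RRP12, TCOF1, NOLC1, POLR1E, DDX18, RRS1 and BOP1. Searched on both strands, CACGTG stood in the windows of 15 of the 35 genes (42.9%), compared with 12.36% of the 11235 tested genes with an entry and 8.77% of all 27305 genes with one. The motif reads the same on both strands and was counted once per site. Of its 16 sites, 15 began within 50 bases of the start, from 31 bases before it to 35 bases after it. The site in RRP9 spanned the start base, that in UTP4 lay upstream of it, and those in MRTO4, WDR43, FBL and NOP14 lay downstream of it. NOP16 and WDR12, which fell in both lines, held no CACGTG in this window. Of the 15 genes with the motif 13 fell in TCam-2 and 4 in 2102 EP, and of the 20 without it 14 fell in TCam-2 and 9 in 2102 EP. CCGGAAG was found in 14 of the 35 genes, compared with 21.7% of the tested genes. Of the 14 with it 11 fell in TCam-2 and 9 in 2102 EP, and of the 21 without it 16 fell in TCam-2 and 4 in 2102 EP. These splits were not tested. Other motifs were searched too and are not marked in the windows above. Those named for NRF1 and YY1 each stood in 3 of the 35 genes (8.6%), compared with 2.6% and 2.24% of the tested genes. A further element stood in 2 of the 35 (5.7%), NOP14 and NPM1, compared with 1.64%. A share above that of the tested genes was thus not particular to CACGTG, although these counts are small. These matches describe letters in a window and say nothing of what was bound there.

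The libraries held between 7290335 and 10053366 estimated counts each, and all 44 genes were among the 15614 that passed the low-count filter. The lowest of the 44 in any library was UTP15 with 114 counts, and the highest NCL with 31393. Levels are in CPM, the count scaled to library size with the trimmed mean of M values, and each ± is 1 SD over 3 libraries for a level and 1 SE for a log2 fold change. Line markers went with the labels, since under DMSO SOX17 averaged 193 CPM in TCam-2 and 0.077 CPM in 2102 EP, and SOX2 averaged 17.1 CPM in TCam-2 and 468 CPM in 2102 EP. Of 5 blood and immune markers CD3E and HBB were at 0 in every library, and the summed level of the 5 lay between 1.16 and 1.98 CPM in TCam-2 with I-BRD9, 1.17 and 2.71 with DMSO, 2.45 and 4.41 in 2102 EP with I-BRD9 and 1.37 and 2.17 with DMSO. Of 5 stromal markers DCN and LUM were at or near 0 in both lines, and the sum of the 5 lay between 87.7 and 134 CPM in TCam-2 with I-BRD9, 166 and 178 with DMSO, 20.4 and 22.8 in 2102 EP with I-BRD9 and 16.4 and 21.9 with DMSO. COL1A2 made up most of that sum in TCam-2. The 5 markers of Sertoli and Leydig cells summed to 5.33 to 5.65 CPM in TCam-2 with I-BRD9, 3.92 to 8.03 with DMSO, 8.37 to 12.3 in 2102 EP with I-BRD9 and 6.48 to 9.15 with DMSO. The part of these markers in the results was not tested. In such bulk libraries fewer cells of a kind and less RNA per cell cannot be told apart.

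Every gene was tested with edgeR's quasi-likelihood F-test over all 12 libraries, with p-values adjusted over all 15614 genes, and a gene is called at an adjusted p under 0.05. In TCam-2 the 34 genes that fell were 77.3% of the 44, where 16.5% of all tested genes were called lower and 15.3% higher. In 2102 EP the 16 that fell were 36.4% of the 44, where 18.6% of all tested genes were called lower and 18.2% higher. The median over all tested genes was 0.0069 in TCam-2 and 0.0025 in 2102 EP. At an unadjusted p under 0.05 none of the 44 was higher and 36 were lower in TCam-2, and 3 were higher and 22 lower in 2102 EP. No share of all genes is given at this threshold here or below, so such counts are no result about a group. DESeq2's Wald test called none higher in either line, and limma voom called none higher in TCam-2 and 1, NOP14, in 2102 EP. All 3 I-BRD9 libraries lay below all 3 DMSO libraries for 38 of the 44 in TCam-2, where this held for 22.8% of all genes, and for 25 in 2102 EP, where it held for 23.2%. The labels call the libraries biological replicates without saying how the cultures were kept apart, so p-values measure the spread between these libraries.

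Markers of the tumour types moved alongside. Summed over POU5F1, NANOG, LIN28A and TFAP2C, which mark both types, levels lay between 1357 and 1538 CPM in TCam-2 with I-BRD9 and between 2455 and 2865 CPM with DMSO. In 2102 EP this sum lay between 1024 and 1081 CPM with I-BRD9 and between 1599 and 1711 CPM with DMSO. No I-BRD9 library reached a DMSO library of its line in this sum. The 5 embryonal carcinoma markers summed to 61.7 to 73.3 CPM in TCam-2 with I-BRD9 and 130.5 to 137 CPM with DMSO, and to 424 to 469 CPM in 2102 EP with I-BRD9 and 1551 to 1614 CPM with DMSO. The 5 seminoma markers, TFAP2C again among them, summed to 1140.0 to 1305 CPM in TCam-2 with I-BRD9 and 1379 to 1875 CPM with DMSO, and to 103 to 118 CPM in 2102 EP with I-BRD9 and 119.5 to 199 CPM with DMSO. All 3 sums were thus lower with I-BRD9 in every library of both lines, and their part in the falls of the 44 genes was not tested.

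**Figure D1:**
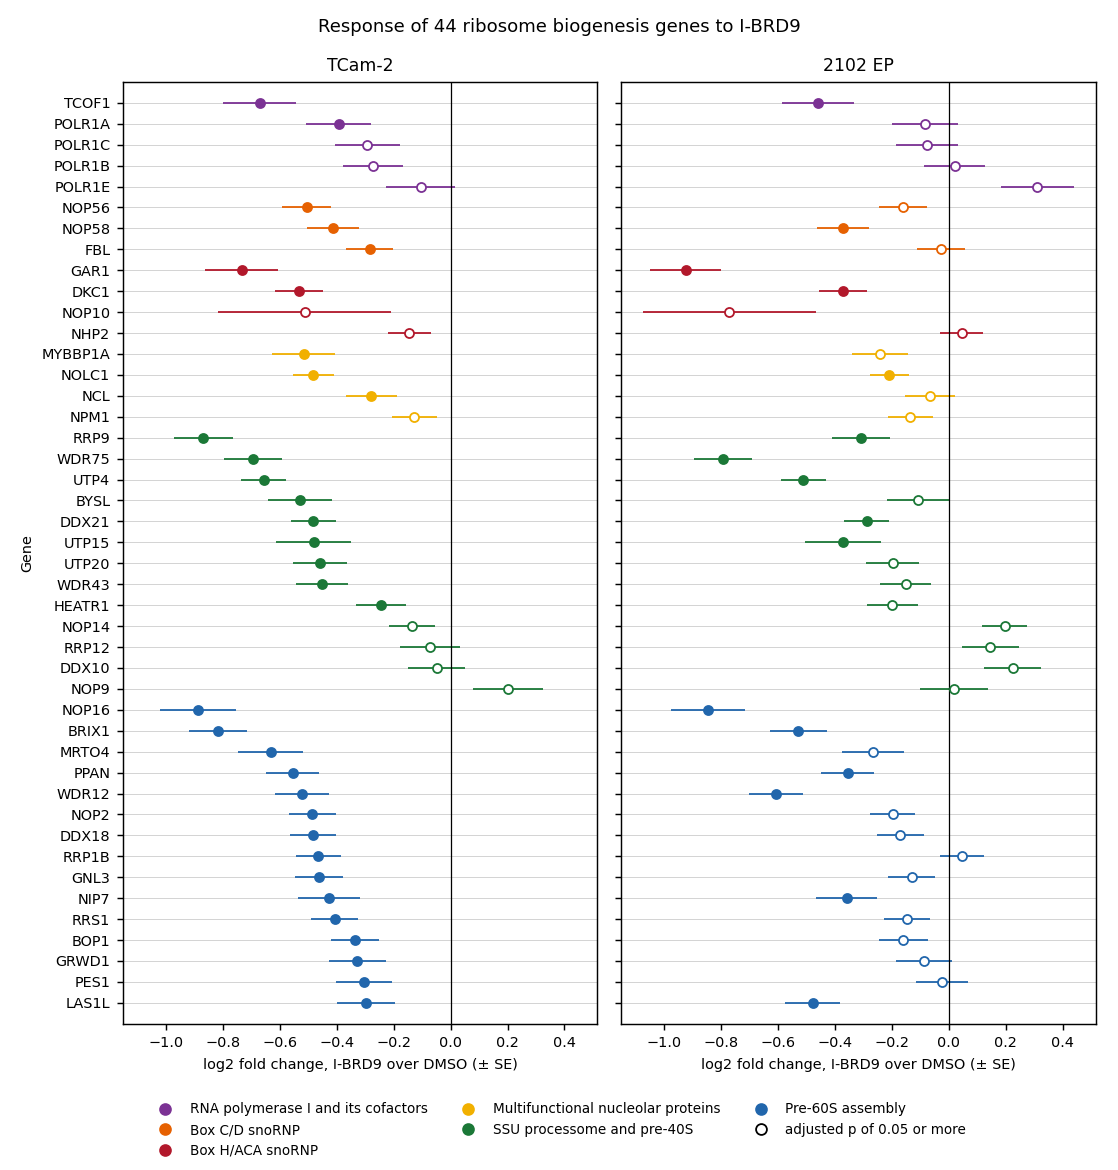
Response of the 44 genes in TCam-2 (left) and 2102 EP (right), as the log2 fold change of I-BRD9 over DMSO on the horizontal axis with bars of 1 SE, genes grouped by role, and open points for an adjusted p of 0.05 or more. In TCam-2 43 points lie left of 0 and 34 are filled, and in 2102 EP 36 lie left of 0 and 16 are filled. Of all tested genes 48.9% were negative in TCam-2 and 49.5% in 2102 EP.

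Counts by role are read against the same shares of all genes called lower, 16.5% in TCam-2 and 18.6% in 2102 EP. Of 5 genes of RNA polymerase I and its cofactors, 2 fell in TCam-2 and 1 in 2102 EP, which for 2102 EP is near the share of all genes and no result about the group. POLR1A encodes the largest subunit of the enzyme and forms its active centre together with POLR1B. In TCam-2 POLR1A stood at 41.2, 34.0 and 36.3 CPM with I-BRD9 and at 44.9, 53.4 and 48.4 CPM with DMSO. Values for POLR1A in 2102 EP were 37.8, 30.4 and 29.6 CPM with I-BRD9 and 32.5, 34.9 and 35.8 CPM with DMSO. The I-BRD9 and DMSO libraries were separate in TCam-2, where POLR1A fell (−0.39 ± 0.11, adjusted p = 0.0102), and overlapped in 2102 EP (−0.08 ± 0.12, adjusted p = 0.619). Without library 2 of either TCam-2 group this call was lost, with an adjusted p of up to 0.0604. The TCam-2 libraries held 58.9, 51.3 and 54.6 CPM of POLR1B with I-BRD9 and 68.9, 64.8 and 65.5 CPM with DMSO. Those of 2102 EP held 47.0, 54.0 and 57.7 CPM with I-BRD9 and 55.5, 44.2 and 57.0 CPM with DMSO. POLR1B was lower in all I-BRD9 libraries of TCam-2 but did not pass the test (−0.27 ± 0.11, adjusted p = 0.0518), and it overlapped in 2102 EP (0.02 ± 0.11, adjusted p = 0.902). POLR1C, a subunit shared with RNA polymerase III, was not called in either line (−0.29 ± 0.12, adjusted p = 0.0562 in TCam-2 and −0.08 ± 0.11, adjusted p = 0.625 in 2102 EP). TCOF1 encodes treacle, the nucleolar scaffold mutated in Treacher Collins syndrome, and it fell in both lines (−0.67 ± 0.13, adjusted p = 0.000909 in TCam-2 and −0.46 ± 0.13, adjusted p = 0.0104 in 2102 EP). Its call in 2102 EP was lost without I-BRD9 library 1, with an adjusted p of 0.0823.

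POLR1E, a subunit found in RNA polymerase I alone, was called in neither line. POLR1E measured 32.0, 38.0 and 30.2 CPM in I-BRD9 libraries of TCam-2 and 35.5, 34.6 and 37.6 CPM in DMSO libraries. With I-BRD9 POLR1E had 23.5, 23.5 and 20.7 CPM in 2102 EP, and with DMSO 17.3, 20.6 and 16.6 CPM. All 3 I-BRD9 libraries of 2102 EP stood above all 3 DMSO libraries, yet the difference did not pass the test (0.31 ± 0.13, adjusted p = 0.0624). In TCam-2 the groups overlapped (−0.11 ± 0.12, adjusted p = 0.55).

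The box C/D particle guides methylation of the ribose in ribosomal RNA. The 3 genes listed here for its proteins all fell in TCam-2, and 1 of them fell in 2102 EP. With 3 genes, the 1 in 2102 EP is no result about the group beside 18.6% of all genes. FBL encodes fibrillarin, the methyltransferase itself. FBL had 655, 705 and 624 CPM with I-BRD9 in TCam-2, against 826, 821 and 769 CPM with DMSO. The 2102 EP values were 868, 702 and 752 CPM with I-BRD9 and 765, 791 and 810.0 CPM with DMSO. It fell in TCam-2 (−0.28 ± 0.08, adjusted p = 0.0115) and overlapped in 2102 EP (−0.03 ± 0.08, adjusted p = 0.834), and the call in TCam-2 was lost without I-BRD9 library 3 (adjusted p = 0.0512). The scaffold protein NOP56 fell in TCam-2 (−0.51 ± 0.09, adjusted p = 7.25e-05) and did not pass in 2102 EP (−0.16 ± 0.09, adjusted p = 0.15). Its partner NOP58 fell in both (−0.41 ± 0.09, adjusted p = 0.0013 in TCam-2 and −0.37 ± 0.09, adjusted p = 0.00285 in 2102 EP).

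Of the box H/ACA proteins, which turn uridines of ribosomal RNA into pseudouridine, GAR1 and DKC1 fell in both lines. GAR1 assists substrate turnover by the pseudouridine synthase. In TCam-2 GAR1 stood at 25.7, 25.5 and 29.6 CPM with I-BRD9 and at 43.8, 42.3 and 48.2 CPM with DMSO. Values for GAR1 in 2102 EP were 28.2, 38.5 and 37.8 CPM with I-BRD9 and 77.8, 61.0 and 60.3 CPM with DMSO. The groups were far apart in both lines, and GAR1 fell by 39.9% in TCam-2 (−0.73 ± 0.13, adjusted p = 0.000108) and fell by 47.3% in 2102 EP (−0.92 ± 0.12, adjusted p = 3.76e-06). DKC1, the synthase dyskerin, fell by 30.8% in TCam-2 (−0.53 ± 0.08, adjusted p = 3.56e-05) and fell by 22.6% in 2102 EP (−0.37 ± 0.08, adjusted p = 0.00134). NHP2 was not called in either (−0.15 ± 0.08, adjusted p = 0.155 in TCam-2 and 0.05 ± 0.08, adjusted p = 0.677 in 2102 EP).

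NOP10, the smallest of the 4, is described by library because 1 value stood apart, a choice made after its values were seen. The TCam-2 libraries held 71.4, 76.4 and 82.8 CPM of NOP10 with I-BRD9 and 119.8, 101 and 108 CPM with DMSO. Those of 2102 EP held 38.6, 88.4 and 105 CPM with I-BRD9 and 146, 142 and 111 CPM with DMSO. Its I-BRD9 libraries lay below DMSO in both lines, and library 1 of 2102 EP with I-BRD9 was the lowest of all 12. Neither difference passed the test (−0.51 ± 0.30, adjusted p = 0.252 in TCam-2 and −0.77 ± 0.30, adjusted p = 0.0814 in 2102 EP). Without that library NOP10 was called lower in both, with −0.52 (adjusted p = 0.000283) in TCam-2 and −0.44 (adjusted p = 0.00374) in 2102 EP. Left out, the same library moved the numbers called lower among the 44 to 37 in TCam-2 and 17 in 2102 EP.

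Of 4 nucleolar proteins with several tasks, 3 fell in TCam-2 and 1 in 2102 EP. The 1 in 2102 EP is near the 18.6% of all genes and no result about the group. NCL encodes nucleolin, which binds the ribosomal RNA precursor. NCL measured 2383, 2621 and 2397 CPM in I-BRD9 libraries of TCam-2 and 2767, 2996 and 3216 CPM in DMSO libraries. With I-BRD9 NCL had 3686, 3145 and 2999 CPM in 2102 EP, and with DMSO 3179.7, 3449 and 3662 CPM. It fell in TCam-2 (−0.28 ± 0.09, adjusted p = 0.0194) and overlapped in 2102 EP (−0.07 ± 0.09, adjusted p = 0.603), and its call was lost without I-BRD9 library 1, I-BRD9 library 3 or DMSO library 3 of TCam-2, with an adjusted p of up to 0.0823. NPM1 encodes nucleophosmin, a histone and ribosomal protein chaperone of the outer nucleolus. NPM1 had 1727, 1702 and 1788 CPM with I-BRD9 in TCam-2, against 1771, 1914 and 2015 CPM with DMSO. The 2102 EP values were 1861, 2012 and 1901 CPM with I-BRD9 and 2033, 2292 and 2016 CPM with DMSO. NPM1 was called in neither line (−0.13 ± 0.08, adjusted p = 0.24 in TCam-2 and −0.13 ± 0.08, adjusted p = 0.196 in 2102 EP), and its count was fractional in every library, as when reads are split between genes.

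NOLC1, a chaperone of small nucleolar particles, fell in both lines. In TCam-2 NOLC1 stood at 152, 157 and 151 CPM with I-BRD9 and at 223, 204 and 215 CPM with DMSO. Values for NOLC1 in 2102 EP were 351, 348 and 342 CPM with I-BRD9 and 377, 412 and 413 CPM with DMSO. Groups were separate in both, with −0.48 ± 0.07, adjusted p = 1.48e-05 in TCam-2 and −0.21 ± 0.07, adjusted p = 0.0221 in 2102 EP. The call in 2102 EP was lost without I-BRD9 library 2 or 3 or DMSO library 2 or 3 of that line, with an adjusted p of up to 0.0965. It was lost with upper-quartile scaling, without the low-count filter and when only the 2102 EP libraries were fitted as well. MYBBP1A, a nucleolar protein that also regulates transcription in the nucleus, fell in TCam-2. The TCam-2 libraries held 19.7, 18.3 and 16.8 CPM of MYBBP1A with I-BRD9 and 26.2, 25.4 and 26.9 CPM with DMSO. Those of 2102 EP held 51.0, 58.7 and 62.4 CPM with I-BRD9 and 71.0, 67.3 and 65.3 CPM with DMSO. I-BRD9 libraries lay below DMSO libraries in both lines, but the change in 2102 EP did not pass (−0.52 ± 0.11, adjusted p = 0.000946 in TCam-2 and −0.24 ± 0.10, adjusted p = 0.0581 in 2102 EP). Its difference between the lines was not called (−0.28 ± 0.15, adjusted p = 0.253).

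**Figure D2:**
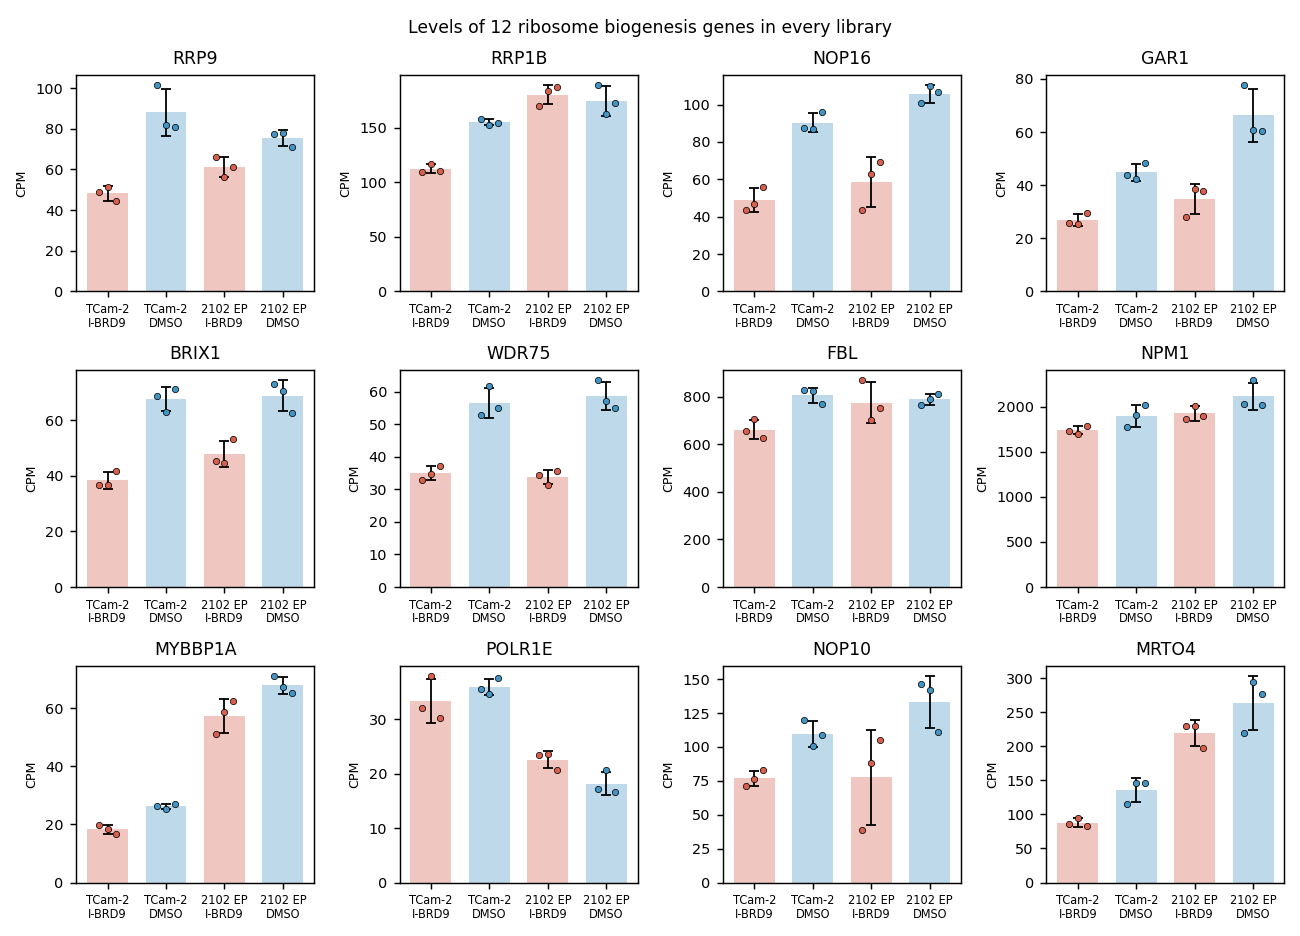
Level of 12 of the genes in CPM (vertical axes, from 0) in TCam-2 with I-BRD9, TCam-2 with DMSO, 2102 EP with I-BRD9 and 2102 EP with DMSO. Points are libraries, bars are means and error bars 1 SD of 3; NOP16, GAR1, BRIX1 and WDR75 are lower with I-BRD9 in every library of both lines, while the RRP1B libraries of 2102 EP overlap.

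Among 13 factors of the small subunit, 9 fell in TCam-2 and 5 in 2102 EP. RRP9 binds the U3 small nucleolar RNA, around which the processome forms, and its gene lies at chr3:51933430-51941941 on the minus strand. RRP9 measured 48.9, 51.4 and 44.4 CPM in I-BRD9 libraries of TCam-2 and 102, 81.8 and 80.9 CPM in DMSO libraries. With I-BRD9 RRP9 had 66.1, 56.2 and 61.0 CPM in 2102 EP, and with DMSO 77.7, 77.8 and 71.1 CPM. No I-BRD9 library reached a DMSO library of its line, and RRP9 fell by 45.2% in TCam-2 (−0.87 ± 0.10, adjusted p = 7.03e-07) and fell by 19.2% in 2102 EP (−0.31 ± 0.10, adjusted p = 0.0205). The smaller fall did not hold without I-BRD9 library 2, DMSO library 1 or DMSO library 2 of 2102 EP, with an adjusted p of up to 0.107.

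WDR75 belongs to the subcomplex of the processome that also acts in transcription of ribosomal DNA. WDR75 had 33.0, 34.8 and 37.1 CPM with I-BRD9 in TCam-2, against 52.9, 61.9 and 55.0 CPM with DMSO. The 2102 EP values were 34.4, 31.5 and 35.7 CPM with I-BRD9 and 63.5, 57.3 and 55.1 CPM with DMSO. It was lower in every I-BRD9 library than in any DMSO library of its line, with −0.69 ± 0.10, adjusted p = 1.25e-05 in TCam-2 and −0.79 ± 0.10, adjusted p = 1.95e-06 in 2102 EP. Its partners there were UTP4 (−0.66 ± 0.08, adjusted p = 1.01e-06 in TCam-2 and −0.51 ± 0.08, adjusted p = 2.17e-05 in 2102 EP) and UTP15 (−0.48 ± 0.13, adjusted p = 0.00683 in TCam-2 and −0.37 ± 0.13, adjusted p = 0.0327 in 2102 EP), which fell in both. WDR43 of the same subcomplex fell in TCam-2 (−0.45 ± 0.09, adjusted p = 0.000458) but did not pass in 2102 EP (−0.15 ± 0.09, adjusted p = 0.201), and HEATR1 likewise gave −0.25 ± 0.09, adjusted p = 0.0381 in TCam-2 and −0.20 ± 0.09, adjusted p = 0.0868 in 2102 EP. In 2102 EP WDR43 passed without I-BRD9 library 1 of that line (−0.24, adjusted p = 0.0257). HEATR1 passed there without DMSO library 2 of that line (−0.27, adjusted p = 0.03). The call of UTP15 in 2102 EP was lost without I-BRD9 library 1 or 3 or DMSO library 1 or 3 of that line, with an adjusted p of up to 0.157. Upper-quartile scaling, a fit without the low-count filter and a fit of the 2102 EP libraries by themselves ended it too. The TCam-2 call of HEATR1 was lost without any 1 I-BRD9 library or DMSO library 1 or 2 of TCam-2, with an adjusted p of up to 0.137, and also with a block by replicate number or library code, with upper-quartile scaling and without the low-count filter.

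The RNA helicase DDX21, which also acts in transcription, fell in both lines (−0.48 ± 0.08, adjusted p = 5.7e-05 in TCam-2 and −0.29 ± 0.08, adjusted p = 0.00617 in 2102 EP). UTP20 and BYSL, factors of the small-subunit precursor, fell in TCam-2, with −0.46 ± 0.09, adjusted p = 0.000634 and −0.53 ± 0.11, adjusted p = 0.000952. In 2102 EP UTP20 stood at −0.20 ± 0.09, adjusted p = 0.105 and BYSL at −0.11 ± 0.11, adjusted p = 0.478. The other 4 genes of this group were called in neither line. NOP14 had −0.14 ± 0.08 in TCam-2 and 0.20 ± 0.08 in 2102 EP, where its I-BRD9 libraries all lay above DMSO, at 168, 159.9 and 157 CPM with I-BRD9 and 134, 139 and 151 CPM with DMSO (adjusted p = 0.0568). The helicase DDX10 had −0.05 ± 0.10 in TCam-2 and 0.23 ± 0.10 in 2102 EP. NOP9 had 0.20 ± 0.12 in TCam-2, the single positive value there, and 0.02 ± 0.12 in 2102 EP.

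RRP12 is known from yeast as a factor in export of the small-subunit precursor. In TCam-2 RRP12 stood at 51.3, 54.3 and 52.3 CPM with I-BRD9 and at 55.2, 57.8 and 52.9 CPM with DMSO. Values for RRP12 in 2102 EP were 142, 106 and 105 CPM with I-BRD9 and 101, 104 and 113 CPM with DMSO. The I-BRD9 and DMSO libraries overlapped in both lines (−0.07 ± 0.11, adjusted p = 0.657 in TCam-2 and 0.15 ± 0.10, adjusted p = 0.278 in 2102 EP).

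All 15 factors of the large subunit fell in TCam-2 and 6 of them in 2102 EP. In TCam-2 every I-BRD9 library lay below every DMSO library for each of the 15, where this held for 22.8% of all genes. NOP16 is a nucleolar protein of the early large-subunit precursor, and its gene lies at chr5:176383938-176388975 on the minus strand. The TCam-2 libraries held 43.6, 46.7 and 56.1 CPM of NOP16 with I-BRD9 and 87.6, 87.0 and 96.2 CPM with DMSO. Those of 2102 EP held 43.5, 63.0 and 69.4 CPM with I-BRD9 and 101, 110.0 and 107 CPM with DMSO. NOP16 fell by 46.0% in TCam-2 (−0.89 ± 0.13, adjusted p = 4.07e-05) and fell by 44.4% in 2102 EP (−0.85 ± 0.13, adjusted p = 5.21e-05), with every I-BRD9 library below every DMSO library. BRIX1 acts in early assembly of the large subunit. BRIX1 measured 36.6, 36.5 and 41.9 CPM in I-BRD9 libraries of TCam-2 and 68.6, 62.7 and 71.1 CPM in DMSO libraries. With I-BRD9 BRIX1 had 45.3, 44.7 and 53.1 CPM in 2102 EP, and with DMSO 73.1, 70.6 and 62.6 CPM. It too was separate in both lines, with −0.82 ± 0.10, adjusted p = 1.69e-06 in TCam-2 and −0.53 ± 0.10, adjusted p = 0.000251 in 2102 EP.

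PES1, BOP1 and WDR12 form the PeBoW complex, which is needed to process the precursor of the large-subunit RNA. WDR12 had 57.5, 61.0 and 50.7 CPM with I-BRD9 in TCam-2, against 88.5, 78.1 and 76.5 CPM with DMSO. The 2102 EP values were 56.2, 55.9 and 48.6 CPM with I-BRD9 and 82.6, 80.6 and 81.6 CPM with DMSO. WDR12 fell in both lines, with separate groups (−0.52 ± 0.09, adjusted p = 0.000172 in TCam-2 and −0.61 ± 0.10, adjusted p = 2.82e-05 in 2102 EP). In TCam-2 PES1 stood at 40.8, 39.2 and 39.2 CPM with I-BRD9 and at 49.0, 51.5 and 46.7 CPM with DMSO. Values for PES1 in 2102 EP were 106, 92.7 and 85.3 CPM with I-BRD9 and 89.5, 97.1 and 102 CPM with DMSO. For PES1 the groups were separate in TCam-2 (−0.30 ± 0.10, adjusted p = 0.0202) and overlapped in 2102 EP (−0.02 ± 0.09, adjusted p = 0.868), and the call was lost without library 2 of either TCam-2 group or I-BRD9 library 3 (adjusted p up to 0.0725). The TCam-2 libraries held 115, 136 and 108 CPM of BOP1 with I-BRD9 and 151, 151 and 150.4 CPM with DMSO. Those of 2102 EP held 119, 108 and 119 CPM with I-BRD9 and 129, 127 and 132 CPM with DMSO. BOP1 was lower in every I-BRD9 library of both lines and passed the test in TCam-2 (−0.33 ± 0.08, adjusted p = 0.00383 in TCam-2 and −0.16 ± 0.09, adjusted p = 0.152 in 2102 EP). The differences between the lines were 0.09 ± 0.13 for WDR12, −0.28 ± 0.13 for PES1 and −0.17 ± 0.12 for BOP1, none of them called.

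RRP1B, at chr21:43659548-43696079 on the plus strand, binds large-subunit precursors in the nucleolus. RRP1B measured 109.9, 117 and 110.2 CPM in I-BRD9 libraries of TCam-2 and 158, 153 and 154 CPM in DMSO libraries. With I-BRD9 RRP1B had 170.3, 183 and 187 CPM in 2102 EP, and with DMSO 189, 162 and 172 CPM. The TCam-2 groups were separate and RRP1B fell by 27.6% (−0.47 ± 0.08, adjusted p = 7.54e-05), while those of 2102 EP overlapped (0.05 ± 0.08, adjusted p = 0.678). MRTO4 resembles the stalk protein P0 and holds its place on the precursor. MRTO4 had 85.4, 95.0 and 82.6 CPM with I-BRD9 in TCam-2, against 115, 146 and 146 CPM with DMSO. The 2102 EP values were 230.3, 230.3 and 198 CPM with I-BRD9 and 219, 295 and 277 CPM with DMSO. It fell in TCam-2 (−0.63 ± 0.11, adjusted p = 0.000239) and overlapped in 2102 EP (−0.27 ± 0.11, adjusted p = 0.0656).

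LAS1L is part of the enzyme that cuts the internal transcribed spacer of the large-subunit precursor. In TCam-2 LAS1L stood at 48.4, 40.1 and 48.5 CPM with I-BRD9 and at 56.8, 54.6 and 57.2 CPM with DMSO. Values for LAS1L in 2102 EP were 71.4, 74.7 and 90.4 CPM with I-BRD9 and 109.7, 114 and 106 CPM with DMSO. It fell in both (−0.30 ± 0.10, adjusted p = 0.029 in TCam-2 and −0.48 ± 0.10, adjusted p = 0.000465 in 2102 EP), and the TCam-2 call was lost without I-BRD9 library 2 or any 1 DMSO library of that line, with an adjusted p of up to 0.172, and also with upper-quartile scaling. DDX18, a helicase, fell in TCam-2. The TCam-2 libraries held 309, 329 and 339 CPM of DDX18 with I-BRD9 and 418, 450.0 and 496 CPM with DMSO. Those of 2102 EP held 295, 309 and 258 CPM with I-BRD9 and 313, 328 and 328 CPM with DMSO. Its I-BRD9 libraries lay below DMSO in both lines, with −0.48 ± 0.08, adjusted p = 8.38e-05 in TCam-2 and −0.17 ± 0.08, adjusted p = 0.115 in 2102 EP.

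The other large-subunit genes that fell in both lines were PPAN (−0.55 ± 0.09, adjusted p = 6.46e-05 in TCam-2 and −0.36 ± 0.09, adjusted p = 0.00445 in 2102 EP) and NIP7 (−0.43 ± 0.11, adjusted p = 0.00391 in TCam-2 and −0.36 ± 0.11, adjusted p = 0.0112 in 2102 EP). The call of NIP7 in 2102 EP was lost without DMSO library 2 of that line, with an adjusted p of 0.0506. The RNA methyltransferase NOP2, the GTPase nucleostemin encoded by GNL3, RRS1 and GRWD1 fell in TCam-2, with −0.49 ± 0.08, −0.46 ± 0.08, −0.41 ± 0.08 and −0.33 ± 0.10. None of the 4 was called in 2102 EP, where values ran from −0.20 ± 0.08 for NOP2 to −0.09 ± 0.10 for GRWD1. The TCam-2 call of GRWD1 was lost without I-BRD9 library 3 of that line, with an adjusted p of 0.0592.

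A test of the difference between the responses, TCam-2 minus 2102 EP, called 2 of the 44 genes, both lower, where 7.19% of all genes were called lower and 5.9% higher. The 2 are 4.55% of the 44, so their number is no result about the group. They were RRP9 (−0.56 ± 0.14, adjusted p = 0.0104) and RRP1B (−0.51 ± 0.11, adjusted p = 0.00253), and both held under each of 19 other settings. DESeq2's Wald test called 5 lower and none higher, adding NOP56, NOLC1 and NOP14, and limma voom called 3 lower and none higher. Leaving out DMSO library 3 of 2102 EP or I-BRD9 library 1 of TCam-2 gave 4, and leaving out DMSO library 1 of TCam-2 gave 5. At an unadjusted p under 0.05 there were 15 lower and none higher, without a share of all genes at that threshold. The difference was negative for 37 of the 44, where it was negative for 50.9% of all genes. Its median was −0.23, compared with −0.011 over all genes. The 95% interval of the difference lay wholly below 0 for 15 genes and spanned 0 for 29, with a median width of 0.557. The interval rests on the SE of the same test, so it adds nothing to the unadjusted counts. For NPM1 it ran from −0.23 to 0.24, for NOP16 from −0.43 to 0.35 and for GAR1 from −0.18 to 0.56, so these intervals do not show that the responses were alike. The 18 genes that were lower in TCam-2 without a call in 2102 EP are therefore not shown to differ, with the exception of RRP1B.

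Set gene by gene, all 16 falls of 2102 EP were shared with TCam-2, and they made up 47.1% of the 34 falls there. Over all genes 1328 were lower in both lines, 51.7% of those lower in TCam-2 and 45.8% of those lower in 2102 EP. Across the 44 genes the fold changes of the lines had a Pearson correlation of 0.75 and a Spearman correlation of 0.785, and across all 15614 genes 0.389 and 0.468. The points share their libraries, genes are not independent replicates and these coefficients are a description.

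**Figure D3:**
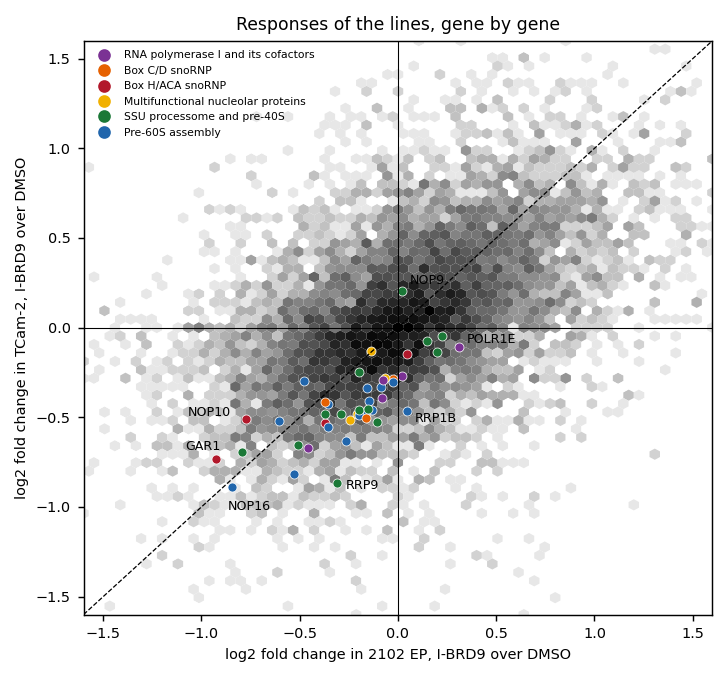
Log2 fold change of I-BRD9 over DMSO in 2102 EP (horizontal) and in TCam-2 (vertical), with the 44 genes in colour by role over the density of all tested genes in grey and a dashed line of equality; genes beyond the axes are not drawn. All but NOP9 lie below 0 on the vertical axis, and 37 of the 44 lie below the line. The difference was negative for 50.9% of all genes.

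Summed over the 44 genes, the level was 10271 ± 270 CPM in TCam-2 with I-BRD9 and 13171 ± 446 CPM with DMSO (SD, n = 3 each), a difference of −22.0%. In 2102 EP the sum was 12934 ± 674 CPM with I-BRD9 and 14601 ± 542 CPM with DMSO, a difference of −11.4%. NCL and NPM1 add the most counts to this sum, so it weighs the genes unequally. For 79 genes of cytosolic ribosomal proteins the difference of the sum was −7.73% in TCam-2 and −6.47% in 2102 EP.

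The rest of the pathway was read from lists of 137 further ribosome biogenesis genes, of which 136 were tested. In TCam-2 64 of them fell and 1 rose, with a median of −0.25, and in 2102 EP 56 fell and 8 rose, with a median of −0.19. These were 47.1% lower in TCam-2 and 41.2% in 2102 EP, beside 16.5% and 18.6% of all genes. At an unadjusted p under 0.05 these were 73 lower and 2 higher in TCam-2, and 61 lower and 10 higher in 2102 EP. As above, no share of all genes stands beside these unadjusted counts. Of the 56 lower in 2102 EP 43 were lower in TCam-2 too, 67.2% of the 64 in TCam-2 and 76.8% of the 56 in 2102 EP.

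By role, 30 of 50 further large-subunit factors fell in TCam-2 and 21 in 2102 EP. WDR74, which works with NVL in remodelling the precursor, fell in both lines (−0.98 ± 0.11 in TCam-2 and −0.74 ± 0.11 in 2102 EP), as did the ATPase NVL (−0.89 ± 0.11 in TCam-2 and −0.51 ± 0.11 in 2102 EP). LYAR gave −0.69 ± 0.09 in TCam-2 and −0.12 ± 0.09 in 2102 EP, where it was not called. SURF6 fell in both (−0.23 ± 0.08 in TCam-2 and −0.82 ± 0.07 in 2102 EP), and the large ATPase MDN1 had −0.11 ± 0.11 without a call in TCam-2 and fell in 2102 EP (−0.71 ± 0.11). NOP53 rose in TCam-2 (0.28 ± 0.07), and HEATR3 and EFL1, which releases eIF6 from the large subunit, rose in 2102 EP (0.47 ± 0.11 and 0.48 ± 0.16). The call of EFL1 was lost without I-BRD9 library 2 or DMSO library 2 of 2102 EP, with an adjusted p of up to 0.0926, and also without the low-count filter.

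Of 44 further small-subunit factors tested, 19 fell in TCam-2 and 18 in 2102 EP. Largest in TCam-2 were the methyltransferase EMG1 (−0.68 ± 0.08), LTV1 (−0.65 ± 0.11) and NOL6 (−0.62 ± 0.10), and in 2102 EP TSR1 (−0.73 ± 0.10), UTP25 (−0.50 ± 0.15) and UTP3 (−0.50 ± 0.09). RRP36 and the GTPase BMS1 rose in 2102 EP (0.27 ± 0.10 and 0.19 ± 0.07). In that line UTP25 was lost without I-BRD9 library 3 or DMSO library 1, RRP36 without I-BRD9 library 1 or 3 or DMSO library 2 or 3, and BMS1 without I-BRD9 library 2 or 3 or DMSO library 1 or 2, with adjusted p of up to 0.0589, 0.173 and 0.146. RRP36 was also lost by DESeq2 and without the low-count filter, and BMS1, lost under 9 of 20 settings in all, with DESeq2's size factors, without that filter, with either block and when only the 2102 EP libraries were fitted. None of this list rose in TCam-2 by edgeR, nor at an unadjusted p under 0.05.

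Among 11 further genes of RNA polymerase I transcription, 3 fell in TCam-2 and 5 in 2102 EP. These were 27.3% and 45.5%, beside 16.5% and 18.6% of all genes. The number in TCam-2 is near that share and no result about the group. UBTF, which binds ribosomal DNA along its length, fell in both lines (−0.29 ± 0.08 in TCam-2 and −0.43 ± 0.08 in 2102 EP), although the TCam-2 call was lost without I-BRD9 library 3 of that line (adjusted p = 0.0536). POLR1G and the termination factor TTF1 also fell in both, with −0.52 ± 0.10 and −0.37 ± 0.10 in TCam-2 and −0.41 ± 0.10 and −0.39 ± 0.10 in 2102 EP. POLR1H, a small subunit, and RRN3, which joins the polymerase to the promoter, fell in 2102 EP (−1.06 ± 0.23 and −0.69 ± 0.24), where POLR1F rose (0.23 ± 0.09). In 2102 EP RRN3 was lost without I-BRD9 library 1 or 3 or DMSO library 1 or 2, and POLR1F without I-BRD9 library 2 or 3 or DMSO library 1, with adjusted p of up to 0.13 and 0.231. POLR1F was also lost by DESeq2, without the low-count filter and when only the 2102 EP libraries were fitted.

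Of 31 genes of RNase MRP, the exosome and assembly of small nucleolar particles, 12 fell in each line. EXOSC5, a core subunit of the exosome, fell in both (−0.83 ± 0.17 in TCam-2 and −0.92 ± 0.17 in 2102 EP). RPP30 and EXOSC7 fell in TCam-2 (−0.63 ± 0.12 and −0.59 ± 0.10), and NAF1, an assembly factor of box H/ACA particles, and EXOSC8 fell in 2102 EP (−0.65 ± 0.21 and −0.62 ± 0.11). EXOSC6, POP1 and POP5 rose in 2102 EP (0.48 ± 0.08, 0.41 ± 0.10 and 0.25 ± 0.09). In that line NAF1 was lost without I-BRD9 library 1 or 2 or DMSO library 2, and POP5 without I-BRD9 library 2 or 3 or DMSO library 1 or 2, with adjusted p of up to 0.0925 and 0.166. POP5 was also lost by DESeq2, without the low-count filter, with either block and when only the 2102 EP libraries were fitted.

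Of 79 genes of the ribosomal proteins themselves, 9 fell and 1 rose in TCam-2, with a median of −0.14, and 19 fell and 1 rose in 2102 EP, with a median of −0.13. The share lower was 11.4% in TCam-2, beside 16.5% of all genes, and 24.1% in 2102 EP, beside 18.6%, so neither share called lower is a result about these genes as a group. Fold changes were negative for 66 of the 79 in TCam-2 and 54 in 2102 EP, beside 48.9% and 49.5% of all genes. All I-BRD9 libraries lay below all DMSO libraries for 31 in TCam-2 and 26 in 2102 EP, beside 22.8% and 23.2%. Of all genes 15.3% and 18.2% rose. RPL29, RPL24 and FAU had the largest falls in TCam-2 (−0.44 ± 0.09, −0.36 ± 0.09 and −0.33 ± 0.08), and RPL27, RPL30 and RPL29 in 2102 EP (−0.52 ± 0.18, −0.48 ± 0.17 and −0.48 ± 0.09). The calls of RPL27 and RPL30 in 2102 EP were lost without I-BRD9 library 2 or any 1 DMSO library of that line, and without any 1 library of TCam-2 (for RPL27 except its DMSO library 2), with adjusted p of up to 0.148 and 0.154. Both were also lost with upper-quartile scaling and when only the 2102 EP libraries were fitted, and RPL30 with either block. RPL28 rose in both (0.31 ± 0.08 in TCam-2 and 0.37 ± 0.08 in 2102 EP). These counts moved with single libraries: without I-BRD9 library 1 of 2102 EP 19 fell in TCam-2 and 7 in 2102 EP, without DMSO library 1 or 2 of 2102 EP 11 or 5 fell in 2102 EP, and without I-BRD9 library 1 or 2 of TCam-2 5 fell in TCam-2. None of the 79 differed between the lines in its response by edgeR, and at an unadjusted p under 0.05 there were 1 higher and 2 lower.

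**Figure D4:**
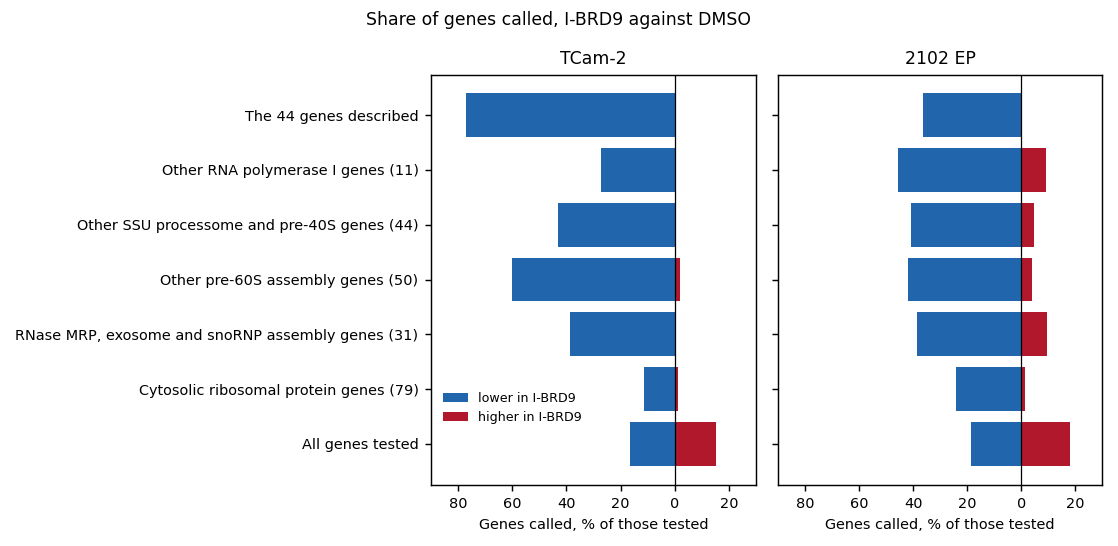
Share of genes called in I-BRD9 over DMSO (horizontal, % of those tested, lower to the left and higher to the right) in TCam-2 and in 2102 EP, for the 44 genes, 5 other lists and all 15614 tested genes. The 44 reach 77.3% lower in TCam-2 and 36.4% in 2102 EP, beside 16.5% and 18.6% of all genes.

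MYC family genes were read beside these results, as known regulators of ribosome biogenesis. MYCN measured 15.1, 12.0 and 15.5 CPM in I-BRD9 libraries of TCam-2 and 24.0, 23.5 and 26.7 CPM in DMSO libraries. With I-BRD9 MYCN had 12.5, 15.4 and 13.5 CPM in 2102 EP, and with DMSO 53.3, 41.1 and 39.6 CPM. MYCN was lower in every I-BRD9 library, with −0.79 ± 0.15, adjusted p = 0.000199 in TCam-2 and −1.69 ± 0.14, adjusted p = 4.21e-09 in 2102 EP, and fell less in TCam-2 (difference 0.90 ± 0.20, adjusted p = 0.00416). MYCL had 4.05, 3.84 and 3.36 CPM with I-BRD9 in TCam-2, against 8.14, 12.6 and 12.9 CPM with DMSO. The 2102 EP values were 5.18, 6.01 and 5.80 CPM with I-BRD9 and 15.9, 12.6 and 10.99 CPM with DMSO. MYCL fell in both lines (−1.57 ± 0.22, adjusted p = 7.64e-06 in TCam-2 and −1.21 ± 0.21, adjusted p = 8.62e-05 in 2102 EP). In TCam-2 MYC stood at 7.51, 6.25 and 6.84 CPM with I-BRD9 and at 5.31, 4.14 and 4.65 CPM with DMSO. Values for MYC in 2102 EP were 3.82, 8.31 and 8.26 CPM with I-BRD9 and 6.18, 3.77 and 3.32 CPM with DMSO. MYC itself had few counts, and its differences did not pass the test (0.55 ± 0.28, adjusted p = 0.145 in TCam-2 and 0.63 ± 0.28, adjusted p = 0.0889 in 2102 EP). The part of these factors in the results was not tested.

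Between the lines under DMSO, 17 of the 44 genes (38.6%) were lower and 5 (11.4%) higher in TCam-2 than in 2102 EP. Of all genes 30.8% were lower and 31.7% higher, so the number lower is near that share and no result about the group. The median was −0.17, compared with 0.016 over all genes. From the libraries given above, MYBBP1A was the most reduced (−1.38 ± 0.10, adjusted p = 8.84e-11), and TCam-2 and 2102 EP libraries did not overlap. PES1 (−0.97 ± 0.09, adjusted p = 6.77e-09), LAS1L (−0.97 ± 0.10, adjusted p = 1.42e-08), MRTO4 (−0.96 ± 0.11, adjusted p = 3.5e-07) and RRP12 (−0.94 ± 0.10, adjusted p = 5.5e-08) followed, all without overlap. Higher in TCam-2 were POLR1E (0.98 ± 0.13, adjusted p = 4.73e-07), POLR1A (0.51 ± 0.11, adjusted p = 0.000543), DDX18 (0.49 ± 0.08, adjusted p = 1.83e-05), POLR1B (0.35 ± 0.11, adjusted p = 0.00676) and BOP1 (0.22 ± 0.08, adjusted p = 0.0258). Of the polymerase subunits among the 44, POLR1C alone was lower (−0.58 ± 0.11), and the cofactor TCOF1 was lower as well (−0.64 ± 0.13). Without DMSO library 2 of 2102 EP the calls of POLR1B (adjusted p = 0.0757) and BOP1 were lost and 3 genes were higher. The call of BOP1 was lost without DMSO library 1 of 2102 EP or DMSO library 2 of TCam-2 as well, with an adjusted p of up to 0.0797, and also without the low-count filter.

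With I-BRD9 in both lines, 28 of the 44 were lower and 1 higher in TCam-2 than in 2102 EP, where 31.1% of all genes were called in each direction, and the median was −0.32 compared with −0.0034. MYBBP1A again had the largest difference (−1.65 ± 0.11, adjusted p = 7.69e-12), before MRTO4 (−1.32 ± 0.11, adjusted p = 4.96e-09), PES1 (−1.25 ± 0.10, adjusted p = 1.36e-10), NOLC1 (−1.18 ± 0.07, adjusted p = 2.33e-12) and RRP12 (−1.16 ± 0.10, adjusted p = 2.05e-09). POLR1E was the gene called higher (0.56 ± 0.12, adjusted p = 0.000405). POLR1A stood at 0.20 ± 0.12, adjusted p = 0.144, which passed without I-BRD9 library 1 of 2102 EP (0.29, adjusted p = 0.0359), and DDX18 at 0.18 ± 0.08, adjusted p = 0.063, which passed without I-BRD9 library 2 of 2102 EP (0.22, adjusted p = 0.0439). FBL did not differ by the test under DMSO (0.03 ± 0.08, adjusted p = 0.771) and was lower with I-BRD9 (−0.23 ± 0.08, adjusted p = 0.0227), although it failed the test without I-BRD9 library 1 of 2102 EP or I-BRD9 library 3 of TCam-2 or when only the I-BRD9 libraries were fitted (adjusted p up to 0.0895). RRP9 gave 0.22 ± 0.10, adjusted p = 0.0585 under DMSO and −0.34 ± 0.10, adjusted p = 0.00693 with I-BRD9. Whether such a gap changed with I-BRD9 is read from the difference of the responses. That was called for RRP9, but not for FBL (−0.26 ± 0.12, adjusted p = 0.17), POLR1A or DDX18. The comparisons between lines use the same libraries as the responses to I-BRD9, so they are not independent of them.

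**Figure D5:**
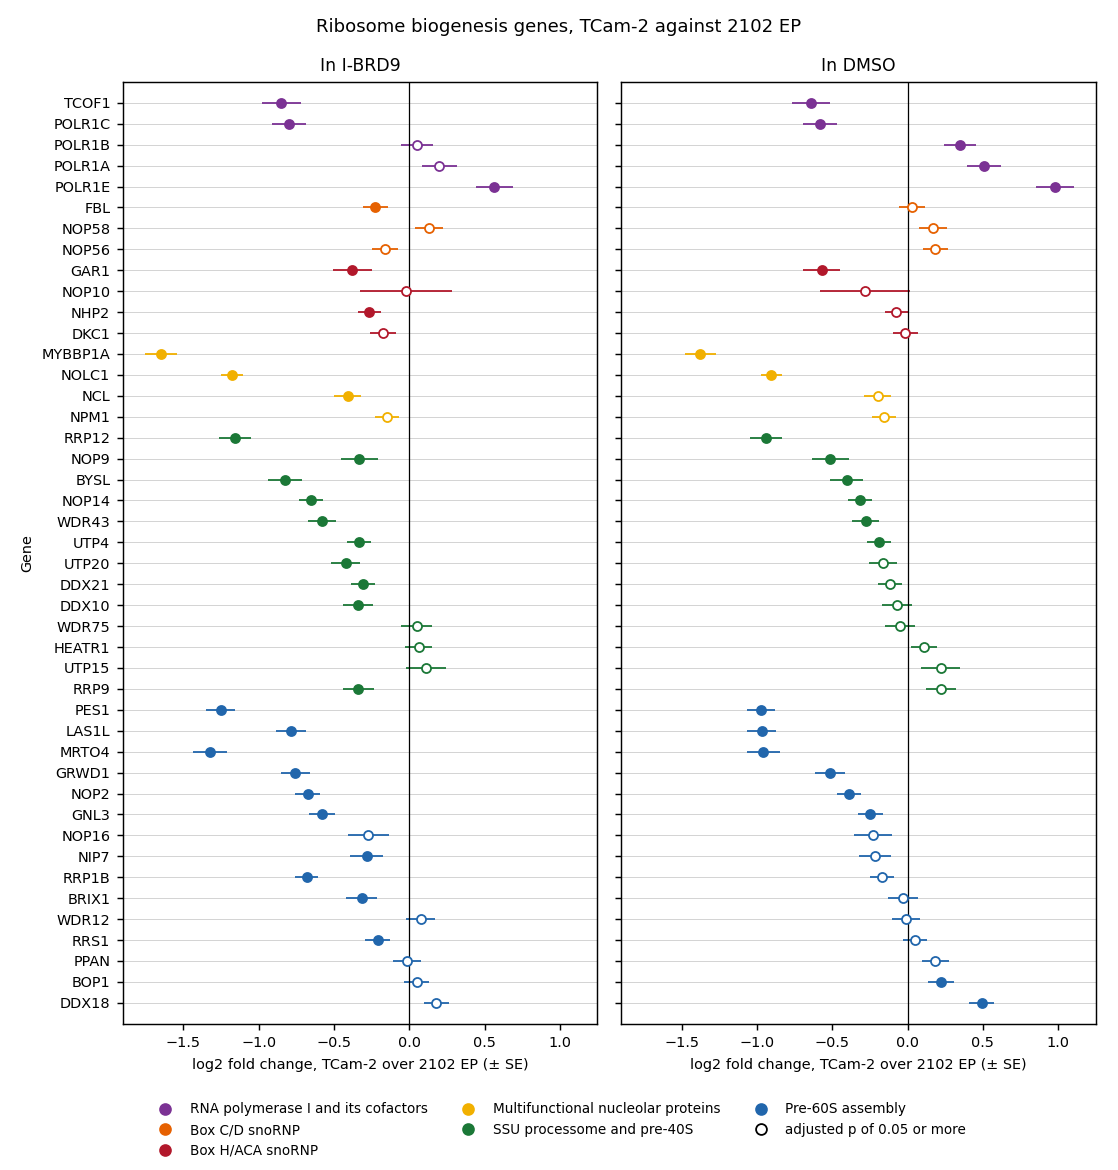
Log2 fold change of TCam-2 over 2102 EP (horizontal, bars of 1 SE) with I-BRD9 (left) and DMSO (right) for the 44 genes by role, with open points for an adjusted p of 0.05 or more. With I-BRD9 28 are called lower and POLR1E higher, and with DMSO 17 are called lower and 5 higher.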

How the data were processed

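Per the labels, RNA of 12 biological replicates was made into libraries with a 3′ end kit. Per the submitters' processing notes, Trim Galore, STAR 2.7.11b, Salmon 1.9.0, R 4.2.0, DESeq2 and the build GRCh38 were used. The deposited table holds estimated counts per gene that need not be whole. The annotation behind it, and whether counting used strand, is not given in the sources used here. For 7 of the 44 genes another annotated gene overlaps on the same strand and for 17 on the opposite one, and NOP56, NHP2 and NPM1 had fractional counts in every library, 13 others in some.

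Here the counts were rounded and filtered with filterByExpr, leaving 15614 genes, and fitted with edgeR 4.0.16 in R 4.3.3 (TMM scaling, 4 group means, 8 residual degrees of freedom, robust quasi-likelihood F-test, Benjamini-Hochberg over all genes). An SE is the size of the log2 fold change divided by the square root of F. The script was tested on simulated data. Totals were 7290335 to 10053366 counts a library.

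Members and gene lists were chosen with earlier results of these data known. Values by library are given for the 5 called genes with the largest change per direction in each comparison, all called in the difference, and FBL, NPM1, NCL, NOP16, WDR12, POLR1A and POLR1B. From each further list the 3 called with the largest change per direction and line are named. Alternatives were other scalings, DESeq2 1.42.0, limma 3.58.1 (voom), no filter, blocks by replicate number or library code, fits on the compared groups alone, and leaving out each library. Gene positions are from GENCODE release 29.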

Additional observations from a re-analysis of the deposited data

Results flagged for a closer look

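The response to I-BRD9 differed between TCam-2 and 2102 EP, by edgeR's test of the difference itself, for 11 of the genes named here, each given as TCam-2 minus 2102 EP on the log2 scale. Called lower were 2 of the 44 ribosome biogenesis genes (4.55%) and 5 of 136 further biogenesis genes (3.68%), and 3 of the 136 were called higher (2.21%). Over all genes 7.19% were lower and 5.9% higher, so these numbers are no result about the groups. Of the 44 ribosome biogenesis genes these were RRP9 at −0.56 (adjusted p = 0.0104) and RRP1B at −0.51 (adjusted p = 0.00253). Lower in TCam-2 among further biogenesis genes were LYAR at −0.57 (adjusted p = 0.00442), HEATR3 at −0.54 (adjusted p = 0.0175), EXOSC6 at −0.46 (adjusted p = 0.00988), RBM28 at −0.44 (adjusted p = 0.03) and EIF6 at −0.40 (adjusted p = 0.0239). Higher were RPP40 at 0.89 (adjusted p = 0.00692), MDN1 at 0.60 (adjusted p = 0.0107) and SURF6 at 0.60 (adjusted p = 0.00033). MYCN stood at 0.90 (adjusted p = 0.00416). Without DMSO library 1 of 2102 EP the calls of EIF6, HEATR3 and RBM28 were lost. That of EIF6 was also lost without I-BRD9 library 3 or DMSO library 2 of TCam-2, that of HEATR3 without DMSO library 1 of TCam-2, and that of RBM28 without DMSO library 2 of 2102 EP or I-BRD9 library 1 or 3 or DMSO library 3 of TCam-2, and with a block by replicate number or library code. The adjusted p reached 0.0594 for EIF6, 0.0509 for HEATR3 and 0.0803 for RBM28.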

How the results depend on the processing

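No called direction among the 44 genes turned under any of the 20 other settings (19 for the difference). Calls that held under each were 27 of 34 in TCam-2, 11 of 16 in 2102 EP, 2 of 2 in the difference, 18 of 22 between the lines under DMSO and 23 of 29 with I-BRD9. Without 1 library each, 29 to 37 genes were lower in TCam-2 and 14 to 17 in 2102 EP, and 0 to 2 were higher in 2102 EP. In the difference 2 to 5 were lower. Between the lines, 3 to 7 were higher under DMSO and 1 to 2 with I-BRD9. Calls were gained as well as lost. In 2102 EP NOP56, WDR43, HEATR1, MRTO4, MYBBP1A, NOP2 and NOP10, not called above, were each called lower under some setting. So were POLR1B, POLR1C and NOP10 in TCam-2. Upper-quartile scaling called 3 higher in 2102 EP (POLR1E, NOP14 and DDX10) and limma voom 1 (NOP14), and DESeq2 called 5 lower in the difference. The cause was not tested. Upper-quartile scaling also moved the median of the 44 to −0.43 in TCam-2 and −0.14 in 2102 EP. With it the median over all genes moved up too, to 0.038 in TCam-2 and 0.043 in 2102 EP. Correlations of same-numbered libraries ran from −0.119 to 0.0961 in 2102 EP, where those of other numbers ran from −0.119 to 0.175. In TCam-2 they ran from 0.0338 to 0.16, and those of other numbers from −0.181 to 0.0481. In neither line did every library correlate best with its own number. Replicate numbers thus showed no pairing in 2102 EP, and for TCam-2 these values do not settle it. With the replicate block 33 were lower in TCam-2, 16 in 2102 EP and 2 in the difference, and between the lines 18 were lower and 5 higher under DMSO and 28 lower and 1 higher with I-BRD9. Ribosomal protein genes lower in TCam-2, 9 in all, became 5 with upper-quartile scaling, 16 with DESeq2, 15 with limma voom and 20 when only the TCam-2 libraries were fitted. Those in 2102 EP, 19 in all, became 10 with upper-quartile scaling and 10 when only its own libraries were fitted. Further biogenesis genes higher in 2102 EP, 8 in all, became 5 with DESeq2, 3 without the filter and 5 when only its own libraries were fitted. The difference intervals, with a median width of 0.557, limit what can be read from uncalled differences.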
